A study of Mus musculus with 6 samples.

Results

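The integrin and extracellular matrix genes of sorted B16-F10 melanoma cells are described here. They were taken by mouse symbol from the count table: every integrin alpha and beta subunit, laminin chain, collagen chain and nidogen, together with *Fn1*, *Sparc*, *Tnc*, *Timp1*, *Timp2*, *Timp3*, *Mmp2* and *Mmp14*. The rule found 70 rows among 18324 gene rows, made up of 14 integrin alpha and 7 integrin beta subunits, 8 laminin chains, 33 collagen chains, 3 matrix glycoproteins (*Nid1*, *Fn1* and *Sparc*) and 5 metalloproteinases or inhibitors. *Tnc* and *Nid2* were not analysed here. Of the 70, 30 had enough counts to be tested with all 6 libraries, and 40 did not, with 1 to 85 counts over all libraries together (median 16).

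B16-F10 is a mouse melanoma cell line whose cells differ in melanin content. Cultured cells were sorted by flow cytometry, on the light scatter of intracellular melanin, into high-pigmented cells (HPC) and low-pigmented cells (LPC), with no treatment or genotype difference between them, and each group has 3 libraries made with the QuantSeq 3′ mRNA-Seq FWD kit. Each HPC library shares a title suffix with 1 LPC library, and these sets are called set 1 (16-9-15), set 2 (18-8-14) and set 3 (1-9-14). The labels do not say what the suffix marks, nor that the sets are separate cultures, so p values measure only the spread between these libraries.

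Integrins are cell surface receptors made of 1 alpha and 1 beta subunit that bind matrix proteins outside the cell and connect to actin through talin and kindlin inside it. Laminins are heterotrimers of an alpha, a beta and a gamma chain and form basement membranes with type IV collagen and nidogen, while fibronectin and the fibrillar collagens build interstitial matrix. In melanoma, the beta subunit encoded by *Itgb3* is known for its association with invasive growth, *Sparc* encodes a secreted matrix-binding glycoprotein, and the membrane-anchored protease encoded by *Mmp14* activates the secreted protease encoded by *Mmp2* with the help of the inhibitor encoded by *Timp2*.

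Each library held between 3819605 and 7311131 gene counts. The libraries of set 2 stood apart: 1 row, RP23-81C12.3, took 53.9% of gene counts in HPC and 27.1% in LPC of set 2 but 3.54% to 5.03% elsewhere, and the members took 0.0445% of gene counts in HPC of set 2 against 0.143% to 0.238% in the other libraries. Counts were found for 34 of the 70 members in HPC of set 2, for 38 in LPC of set 2 and for 49 to 55 in the others. All 10 melanocyte markers of a fixed list had counts in every library, with a summed level of 4770 to 22400 CPM (counts scaled to a common library total, with TMM factors) in HPC and 6440 to 18300 in LPC. Summed levels of other cell types were 19.5 to 72.2 CPM in HPC and 20.5 to 47.5 in LPC for fibroblasts (6 of 10 markers are rows, *Col1a1* and *Col1a2* among them), and 5.49 to 34.3 and 0 to 5.62 for leukocytes (6 of 10, *Itgam*, *Itgal* and *Itgb2* among them). They were 0.813 to 23.9 and 1.32 to 2.31 for endothelial cells (4 of 7), 2.44 to 15.1 and 0.496 to 4 for epithelial cells (3 of 8) and 68.2 to 206 and 76.4 to 142 for Schwann cells (6 of 7). The highest values of the fibroblast, leukocyte, endothelial and epithelial lists were all in HPC of set 2. *Pecam1* and *Emcn* had 20 counts each and *Thy1* 15 in that library and 0 in the other 5. *Cd68* (46 counts), *Pdgfra* (36) and *Col1a2* (21) also had their highest counts in that library, with at most 24, 8 and 13 elsewhere. *Cdh1*, with 26 counts, supplied all of the epithelial level of 15.1 CPM there. Some other markers of the same lists did not peak in that library. *Pdgfrb* and *Col1a1* had 0 counts in it and at most 47 and 22 in any library, and *Vwf* had 1 against 5 to 18 elsewhere. The part of such cell types in the values of that library was not tested.

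The integrin repertoire was dominated by a few subunits. In the order set 1, set 2, set 3, *Itgb1*, the common partner of most alpha subunits, had 1207, 186 and 1917 counts in HPC and 1234, 943 and 2366 in LPC, or 176 ± 60.5 CPM (SD, n = 3) and 241 ± 33.5 CPM (SD, n = 3). It supplied between 76.4% and 90.8% of all beta subunit counts in each library. Reads come from transcript 3′ ends, so counts of different genes do not scale with transcript length, and levels of genes are compared here as CPM without a length term. *Itgb3* had 283, 25 and 121 counts in HPC and 100, 79 and 62 in LPC, and *Itgb5*, whose product pairs with the alpha subunit of *Itgav*, had 87, 22 and 139 in HPC and 97, 85 and 169 in LPC. Over the 6 libraries *Itgb3* averaged 20.1 CPM and *Itgb5* 16.9 CPM, an order that did not hold within each library. The epithelial subunit genes *Itgb4* and *Itgb6*, the leukocyte gene *Itgb2* and *Itgb8* had at most 13 counts in any library.

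Among the alpha subunits, *Itga6*, which encodes a laminin-binding subunit, had the highest mean, 54.8 CPM, with 352, 65 and 404 counts in HPC and 387, 174 and 696 in LPC. *Itga4*, whose product binds fibronectin and the endothelial ligand VCAM1, had 176, 25 and 293 counts in HPC and 149, 203 and 408 in LPC, and was above *Itga6* in LPC of set 2. *Itgav*, which encodes the partner of the *Itgb3* and *Itgb5* products, had 192, 1 and 353 counts in HPC and 206, 20 and 316 in LPC. Both libraries of set 2 were thus far below the other 4 in *Itgav*. *Itga9* had 86, 39 and 108 counts in HPC and 35, 73 and 100 in LPC. *Itga2b*, which encodes the platelet integrin subunit and was singled out after its values were seen, had the opposite pattern to *Itgav*, with 31.4 and 32.9 CPM in HPC and LPC of set 2 and 1.89 to 2.93 CPM in the other 4 libraries. *Itga5*, encoding the fibronectin receptor subunit, had 6 to 13 counts in 5 libraries and 0 in HPC of set 2, while *Itga3* had at most 13 in any library. Of the leukocyte genes, *Itgae* had at most 4 and *Itgal* at most 21 counts in any library. *Itgam* had 11 counts in HPC of set 2 and 0 elsewhere.

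The laminin chains measured above the threshold were *Lama4*, *Lama5*, *Lamb1*, *Lamb2* and *Lamc1*, which provide alpha, beta and gamma chains. *Lama4* had 118, 108 and 240 counts in HPC and 110, 274 and 469 in LPC, and *Lama5* had 81, 6 and 156 in HPC and 62, 27 and 204 in LPC. *Lama4* took between 57.8% and 94.7% of alpha chain counts in each library, with both set 2 libraries, at 94.7% and 89%, above the other 4. The beta chain gene *Lamb1* had 125, 61 and 361 counts in HPC and 92, 179 and 409 in LPC, and *Lamb2* had 128, 0 and 295 in HPC and 105, 59 and 318 in LPC. The only gamma chain row, *Lamc1*, ranged from 13.7 to 28.9 CPM over the libraries, at 19.6 ± 5.21 CPM in HPC and 21.9 ± 6.48 CPM in LPC (SD, n = 3 each). *Lama1*, *Lama3* and *Lamb3*, the first known from embryonic and the others from epithelial basement membranes, had at most 12 counts in any library. *Nid1*, which encodes the nidogen that links laminin to type IV collagen, had 31, 5 and 72 counts in HPC and 14, 0 and 111 in LPC.

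The collagen chains with a row were low throughout. Chains without a row, *Col3a1*, *Col5a2* and the type VI chains among them, are not covered here. Of 33 collagen chains 8 were tested, and the highest mean over libraries was that of *Col16a1*, a fibril-associated collagen, at 22.9 CPM, with 245, 1 and 166 counts in HPC and 202, 91 and 175 in LPC. *Col5a3*, a chain of the fibril-regulating type V collagen, averaged 18.5 CPM and was above *Col16a1* in both libraries of set 2 and in LPC of set 3, with 102, 8 and 164 counts in HPC and 56, 121 and 254 in LPC. *Col1a1* and *Col1a2*, the chains of the main fibrillar collagen of fibroblasts, had at most 22 counts in any library. The basement membrane chain genes *Col4a1* and *Col4a2* lie head to head, and their RefSeq promoter windows in GRCm38.p6 (250 bases before to 50 after each start) share 78 bases. *Col4a1* had 52, 0 and 80 counts in HPC and 47, 55 and 111 in LPC, against 7, 0 and 10 and 7, 0 and 20 for *Col4a2*. The annotation gives *Col4a1* and *Col4a2* overlapping exons on opposite strands, and use of the strand in counting is not given in the sources used here. The *Col4a1* window is shown to make this arrangement visible (chr8:11312777-11313076, minus strand, with the bases shared with the *Col4a2* window of chr8:11312555-11312854 in capitals).
Col4a1: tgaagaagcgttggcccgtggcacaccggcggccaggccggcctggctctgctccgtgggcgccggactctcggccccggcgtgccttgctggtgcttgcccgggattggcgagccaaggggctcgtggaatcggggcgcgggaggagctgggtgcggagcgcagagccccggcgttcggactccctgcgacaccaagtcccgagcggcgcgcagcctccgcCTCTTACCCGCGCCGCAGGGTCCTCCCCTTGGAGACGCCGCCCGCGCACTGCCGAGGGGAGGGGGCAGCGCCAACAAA

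*Sparc* had the highest mean level over the 6 libraries (465 CPM, beside 292 CPM for *Timp2*), although *Timp2* was above it in both libraries of set 2 and in LPC of set 3. It had 4767, 359 and 3237 counts in HPC and 5024, 970 and 3031 in LPC. Scaled to library size it stood at 776, 209 and 378 CPM in HPC and 830, 277 and 318 CPM in LPC, so that both set 1 libraries were above the rest. The inhibitor gene *Timp2* had 1324, 430 and 2424 counts in HPC and 1131, 1671 and 3245 in LPC, and *Mmp14* had 960, 117 and 1763 in HPC and 933, 1300 and 1699 in LPC. *Fn1*, the fibronectin gene, had 189, 29 and 53 counts in HPC and 261, 21 and 66 in LPC. *Timp3*, the matrix-bound inhibitor, had 46, 1 and 31 counts in HPC and 56, 44 and 68 in LPC, and *Timp1* had 41, 0 and 27 in HPC and 23, 0 and 14 in LPC. *Mmp2*, whose product cleaves type IV collagen and is activated by the *Mmp14* product, had 12, 0 and 31 counts in HPC and 4, 28 and 3 in LPC.

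**Figure D1:**
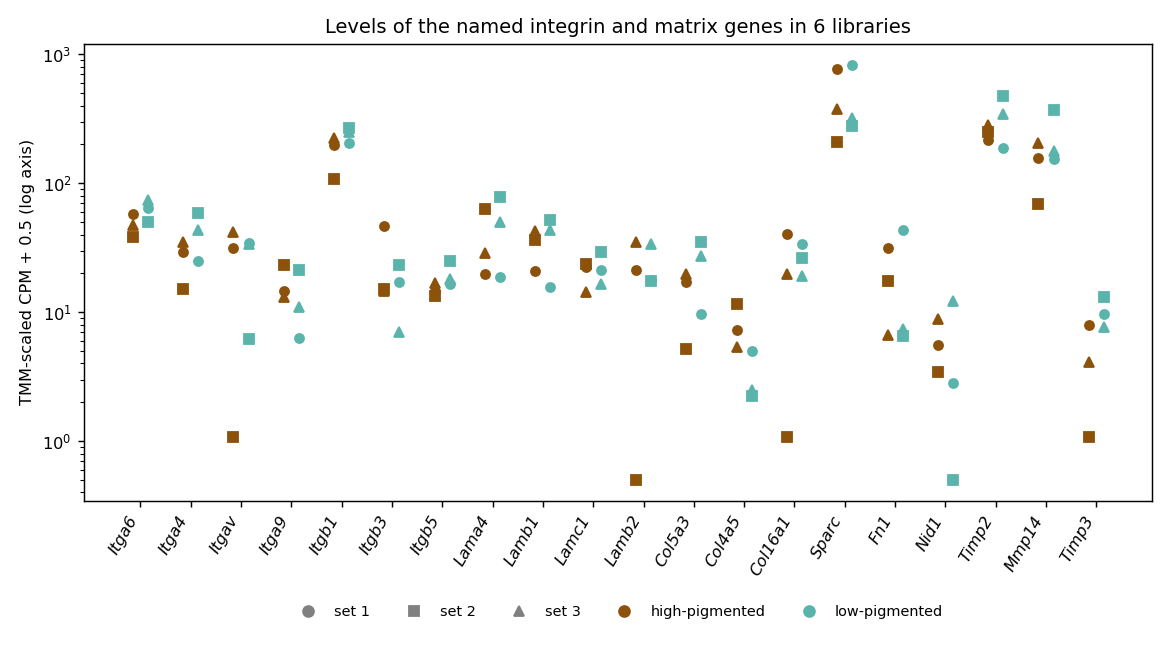
Level of each named member in each library, as TMM-scaled CPM plus 0.5 on a log axis, with colour for pigment group and marker shape for set. Sparc has the highest mean, at 209 to 830 CPM, with Timp2 above it in both set 2 libraries and in LPC of set 3, and HPC of set 2 (brown squares) is lowest or at 0 for Itgav, Col16a1, Lamb2 and Timp3.

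The comparison of HPC with LPC asked which members differ between cells with much and with little melanin. Over all 6 libraries 0 of 30 tested members were called at the 0.05 level by the quasi-likelihood test of edgeR after adjustment, against 0% of all 11324 genes tested, and the adjusted p of each member was 0.9996 to 4 digits. At an unadjusted p under 0.05 there were 0 members and 38 genes (0.336%), and DESeq2 also called 0 members. The median log2 change of the tested members was -0.25, beside -0.04 for all genes tested. With the sets as a block 0 members passed either (0% of all genes, smallest adjusted p 0.9267), and 0 of the 30 had an unadjusted p under 0.05, against 1.88% of all genes. With the block and without set 2, 1 of 35 tested members passed, against 1.3% of 11906 genes (0.932% higher and 0.37% lower in HPC), and 6 had an unadjusted p under 0.05, against 12.1%. That member was *Itgb3*, and the next smallest adjusted p, that of *Col5a1*, was 0.1478.

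*Itgb3* (RefSeq gene on chr11:104608000-104670476 of GRCm38.p6) was higher in HPC in sets 1 and 3 and lower in set 2. Its level was 46.0, 14.6 and 14.1 CPM in HPC and 16.5, 22.6 and 6.51 CPM in LPC of sets 1, 2 and 3, and the groups overlapped. The log2 difference of HPC from LPC was 1.46 in set 1, -0.62 in set 2 and 1.08 in set 3. Over all 6 libraries the log2 fold change was 0.72 ± 0.72 (SE; edgeR adjusted p 0.9996), and without HPC of set 1 it was -0.08. With the sets as a block and without set 2, *Itgb3* was 2.46-fold higher in HPC, a log2 fold change of 1.30 ± 0.27 (SE; edgeR adjusted p 0.01526, higher in 2 of 2 sets). Limma-voom with the same block and libraries also called it (adjusted p 0.002276), edgeR without the block did not (log2 fold change 1.38, adjusted p 1), and limma-voom with sample weights on all 6 libraries gave 1.32 with an adjusted p of 0.08485, where 0.3% of all genes were called. DESeq2 with the block and without set 2 gave 1.30 with an unadjusted p of 0.00317 and no adjusted p. The call rests on 4 libraries. After the terms for set and group, 4 values per gene leave little to measure spread with. The SE and p value of *Itgb3* there rest mostly on the spread estimated over all genes.

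*Itgb3* was also read as a share of all beta subunit counts, a measure that needs no scaling between libraries and was chosen after the values were seen. *Itgb3* made up 17.9% of 1579 beta subunit counts in HPC of set 1 (95% Wilson interval 16.1% to 19.9%) and 6.91% of 1447 in LPC (5.71% to 8.34%). In set 3 it made up 5.49% of 2204 counts in HPC (4.61% to 6.52%) and 2.38% of 2605 in LPC (1.86% to 3.04%). In set 2 the shares were 10.5% of 237 counts in HPC (7.25% to 15.1%) and 7.12% of 1109 in LPC (5.75% to 8.79%), with overlapping intervals. The share was thus higher in HPC in 3 of 3 sets, by ratios of 2.59, 1.48 and 2.31 in sets 1, 2 and 3, although the groups overlapped across sets. In set 2 the level of *Itgb3* itself was lower in HPC, and its share was higher because *Itgb1*, most of the total, was lower still (108 against 270 CPM). Mean shares were 11.3% ± 6.25 in HPC and 5.47% ± 2.68 in LPC (SD, n = 3 each; exact 2-sided permutation test over libraries, p = 0.3, adjusted p 0.933 over the 8 subunit and chain shares computed, where 3 against 3 libraries allow no p below 0.1). That test exchanges libraries across sets and does not use the pairing. The intervals take each read as independent and cover no other spread between libraries. Reads without molecular identifiers are not independent molecules, so the intervals may be too narrow even for counting error. The *Itgb1* share was lower in HPC in each set, at 76.4%, 78.5% and 87% in HPC and 85.3%, 85% and 90.8% in LPC, and as shares of 1 total the *Itgb1* and *Itgb3* values are not independent. The *Itgb5* share did not keep 1 direction, with HPC to LPC ratios of 0.822, 1.21 and 0.972.

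**Figure D2:**
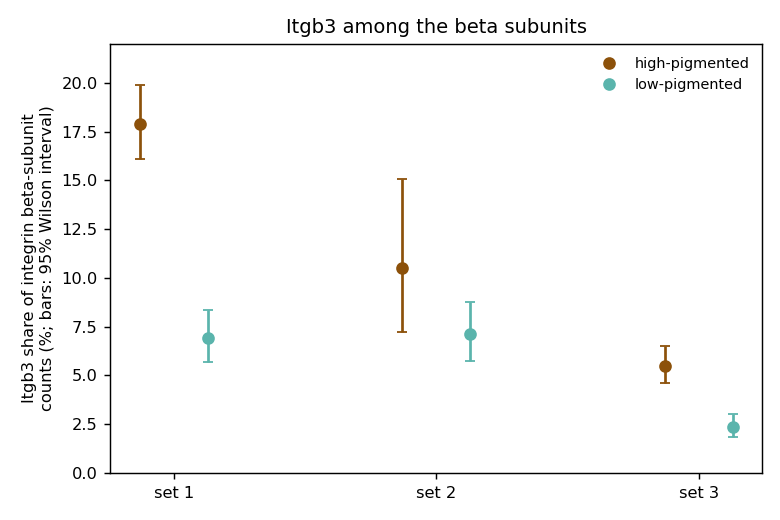
Share of Itgb3 among integrin beta subunit counts (percent, from 0) in HPC and LPC of each set, with 95% Wilson intervals. HPC is above LPC in each set, at 17.9% against 6.91% in set 1 and 5.49% against 2.38% in set 3, and the intervals overlap in set 2.

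Few members kept 1 direction in all sets. HPC was above LPC in all 3 sets in 2 of 30 tested members, *Itga9* and *Col4a5*, against 12.9% of all genes tested, and below in 4, *Itga6*, *Itgb1*, *Itgb5* and *Timp3*, against 17.2%. All 3 HPC values lay above all 3 LPC values in 1 of 30 members, *Col4a5*, against 2.43% of genes, and the reverse order was found in 0 members, against 3.31%. *Col4a5*, an X-linked chain of basement membrane collagen, stood at 6.83, 11.1 and 4.91 CPM in HPC and 4.46, 1.72 and 1.99 CPM in LPC, a log2 fold change of 1.46 ± 0.97 (SE, edgeR adjusted p 0.9996). It was measured with 42, 19 and 42 counts in HPC and 27, 6 and 19 in LPC, and without set 2 and with the block its change was 0.93 ± 0.59. *Itga6* stood at 57.3, 37.8 and 47.2 CPM in HPC and 64.0, 49.7 and 73.1 CPM in LPC, so the groups overlapped, with within-set log2 differences of -0.16, -0.39 and -0.63.

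The log2 fold change of *Itga6* was -0.39 ± 0.38 over all 6 libraries and -0.41 ± 0.19 with the block and without set 2, where the edgeR adjusted p was 0.3704. For *Itga9* the within-set differences were 1.23, 0.12 and 0.26 and the log2 fold change was 0.41 ± 0.70, which ranged from 0.07 (without LPC of set 1) to 1.00 (without LPC of set 2) when 1 library was left out and was 0.72 ± 0.38 with the block and without set 2. *Itgb1* and *Itgb5* were lower mainly in set 2, with differences of -0.05, -1.31 and -0.15 and of -0.18, -0.91 and -0.12. Their log2 fold changes over 6 libraries were -0.45 ± 0.40 and -0.42 ± 0.54, and without set 2 and with the block they were -0.11 ± 0.13 and -0.16 ± 0.30. *Timp3* differed by -0.29, -3.81 and -0.92 in the sets, with a log2 fold change of -1.26 ± 1.00, or -0.65 ± 0.46 without set 2. None of these members passed the threshold (edgeR adjusted p 0.9996 over 6 libraries).

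**Figure D3:**
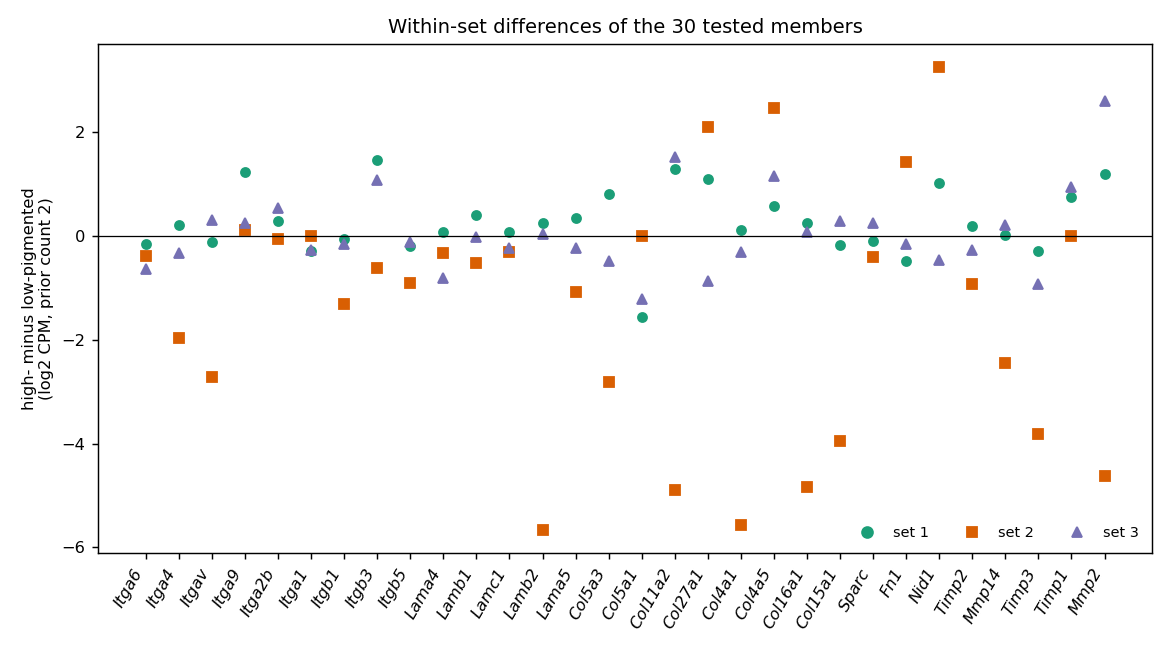
HPC minus LPC difference in log2 CPM (prior count 2) for each of the 30 tested members, 1 marker per set. Sets 1 and 3 lie near 0 for most members, with medians of 0.21 and -0.14, while set 2 (squares) has a median of -0.76 and values beyond -2 for Itgav, Lamb2, Col5a3, Col16a1, Mmp14 and others.

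Most tested members had lower values in HPC than in LPC of set 2. HPC was above LPC in 5 of 30 members in set 2, against 40.8% of all genes tested, in 20 of 30 in set 1, against 51.3%, and in 13 of 30 in set 3, against 49.8%. In set 2 *Col5a1*, *Timp1* and *Itga1* had 0 counts in both libraries and were neither higher nor lower. The median difference in set 2 was -0.76 for the members and -0.20 for all genes. *Mmp14* stood at 68.1 CPM in HPC and 372 CPM in LPC of set 2, where the other 4 libraries ranged from 154 to 206 CPM. *Col16a1* had 1 count in HPC of set 2 and 91 in LPC, and *Itga4* stood at 14.6 against 58.0 CPM.

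*Lamb2* and *Col4a1* had 0 counts in HPC of set 2 and 59 and 55 in LPC. With 3 counts put in place of each 0, LPC would be 9.66-fold and 9.01-fold higher in that pair of libraries. These ratios allow for no error in the LPC counts and no other spread between libraries. In sets 1 and 3 the *Lamb2* differences were 0.26 and 0.05 on the log2 scale and those of *Mmp14* 0.02 and 0.21. *Fn1*, *Nid1*, *Col4a5*, *Col27a1* and *Itga9* had the higher value in HPC of set 2, with *Fn1* at 16.9 CPM in HPC and 6 CPM in LPC. Set 2 has 1 library of each group, so these differences have no replicate check, and the high share of RP23-81C12.3 and the low depth on other genes fall in the same library; their part in these differences was not tested.

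**Figure D4:**
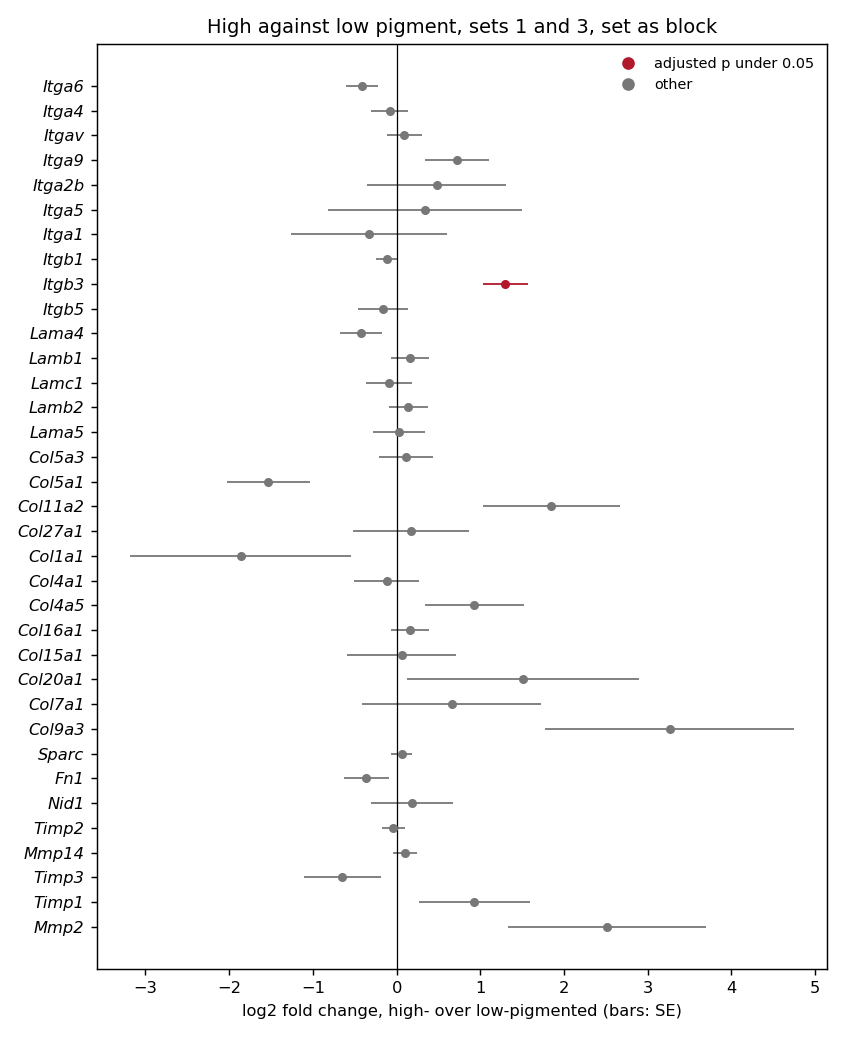
log2 fold change of HPC over LPC for the 35 members tested in sets 1 and 3 with the sets as a block, with bars for the SE and red for an adjusted p under 0.05. Itgb3 at 1.30 is the red point, and the abundant members Sparc, Timp2, Itgb1 and Mmp14 lie between -0.11 and 0.10.

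The abundant matrix genes did not pass the threshold between pigment groups in sets 1 and 3. With the block and without set 2 the log2 fold change was 0.06 ± 0.13 for *Sparc*, -0.04 ± 0.14 for *Timp2*, 0.10 ± 0.14 for *Mmp14* and -0.42 ± 0.25 for *Lama4* (SE each). The errors were wider for the low-count members *Mmp2* (2.51 ± 1.18) and *Timp1* (0.93 ± 0.66). *Col5a1*, a type V collagen chain, stood at 5.37 and 1.52 CPM in HPC and 16.5 and 3.99 CPM in LPC of sets 1 and 3 and at 0 counts in both libraries of set 2. Its log2 fold change was -1.53 ± 0.49 (edgeR adjusted p 0.1478), and its exons overlap those of 2810430I11Rik and *Gm13372* on the opposite strand.

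Set 1 was then compared with set 3, with pigment group as a covariate, which asks how far these genes vary between libraries of the same sorted populations. With all 6 libraries sharing the estimate of spread, 0 of 30 members passed, against 0% of all genes, and 4 had an unadjusted p under 0.05, against 8.37%. Without set 2, 11 of 35 members passed, 5 higher and 6 lower in set 1, against 25.5% of 11906 genes (13.7% higher and 11.8% lower). The share of members called, 31.4%, is near that of all genes, and the calls rest on leaving out set 2. With set and group terms on 4 libraries, their SEs and p values rest mostly on the spread estimated over all genes. Leaving out either library of set 2 alone also gave 11 members, but the remaining set 2 library is then fitted exactly by its own set term. It adds nothing to the estimate of spread, so these fits are no further check of the calls.

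The matrix glycoprotein genes *Fn1* and *Sparc* were higher in set 1. *Fn1* stood at 30.7 and 43.1 CPM in HPC and LPC of set 1 and at 6.20 and 6.93 CPM in set 3, a log2 fold change of 2.48 ± 0.28 without set 2 (SE; edgeR adjusted p 1.694e-07) and of 2.50 with all 6 libraries (adjusted p 0.396). *Fn1* shares stretches of at least 100 bases with at least 95% identity with 26 other genes, so its counts are uncertain to that extent. *Sparc* was 2.31-fold higher in set 1, at 776 and 830 CPM against 378 and 318 CPM, with a log2 fold change of 1.21 ± 0.13 (edgeR adjusted p 5.516e-08) without set 2 and of 1.20 (adjusted p 0.2143) with it. *Itgb3* was 2.90-fold higher in set 1 (log2 fold change 1.54 ± 0.28, edgeR adjusted p 0.0001469), beside 1.30 ± 0.27 between pigment groups in the same libraries. *Col5a1* (1.95 ± 0.49) and *Col16a1* (0.95 ± 0.23) completed the higher members, on the log2 scale.

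Without set 2, 3 of the 5 laminin chains tested were lower in set 1, and so was *Nid1*, against 11.8% of all genes, and with all 6 libraries none of these 4 passed (smallest edgeR adjusted p 0.4779). The laminin chains were not tested as a group. *Lamb1* stood at 20.3 and 15.2 CPM in HPC and LPC of set 1 and at 42.2 and 42.9 CPM in set 3, a log2 fold change of -1.27 ± 0.23 (SE; edgeR adjusted p 0.0001561) without set 2 and of -1.26 (adjusted p 0.4779) with it. *Lama4* stood at 19.2 and 18.2 CPM against 28.1 and 49.2 CPM, 2-fold lower in set 1 (SE 0.25 on the log2 scale, edgeR adjusted p 0.004015). *Lamb2* (-0.83 ± 0.23) and *Nid1* (-1.48 ± 0.50) were also lower, while *Lama5* (-0.76 ± 0.31, adjusted p 0.07497) and the gamma chain gene *Lamc1* (0.53 ± 0.28, adjusted p 0.1857) did not pass. *Timp2* was lower by a smaller amount (-0.63 ± 0.14, edgeR adjusted p 0.00147). *Col11a2*, a minor fibrillar chain, had 3 and 0 counts in set 1 and 88 and 32 in set 3. The abundant receptor genes *Itgb1* (-0.24 ± 0.13), *Itga6* (0.04 ± 0.19) and *Itgav* (-0.18 ± 0.21) did not pass in that comparison.

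**Figure D5:**
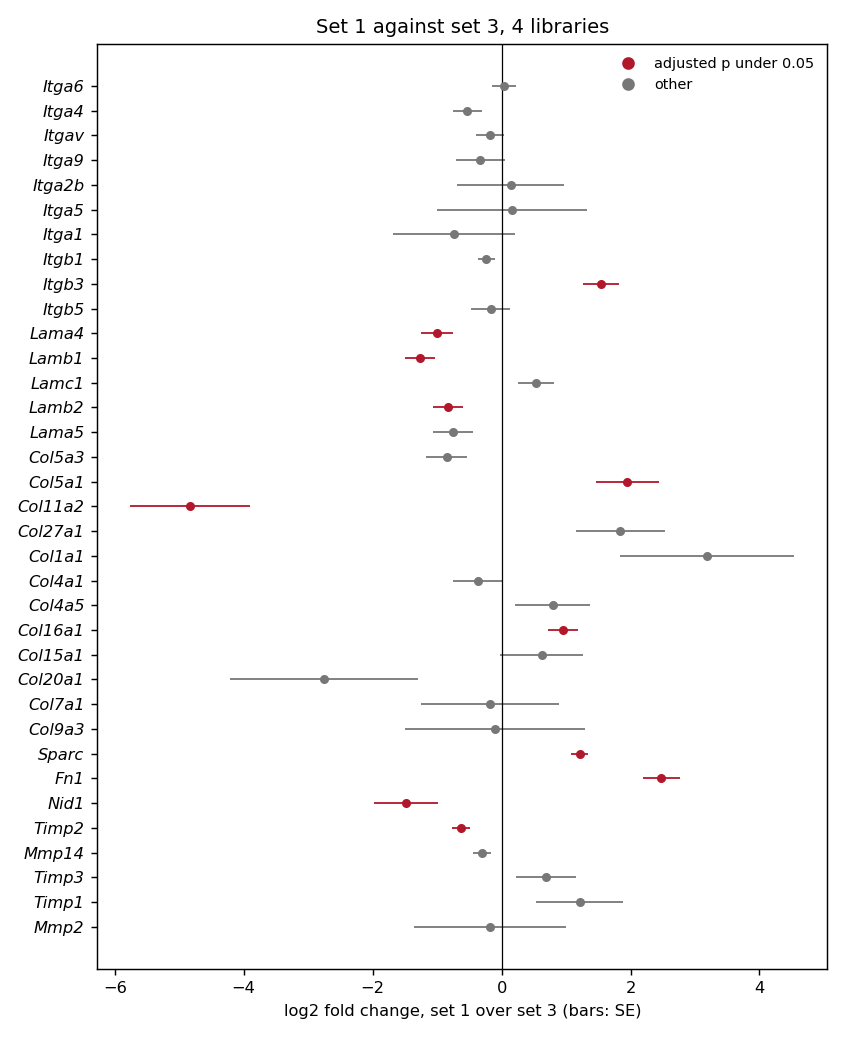
log2 fold change of set 1 over set 3 in the 4 libraries of these sets, for 35 members, with bars for the SE and red for an adjusted p under 0.05. Fn1 at 2.48 and Sparc at 1.21 lie to the right and Lamb1 at -1.27 and Nid1 at -1.48 to the left, while Itga6 and Itgav lie near 0.

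Promoter windows are shown for 2 members that were higher and 2 that were lower in set 1, to let their sequence be read beside their values. They come from RefSeq with build GRCm38.p6 and run from 250 bases before to 50 after the start: *Sparc* at chr11:55420031-55420330 (minus strand), *Col5a1* at chr2:27886175-27886474 (plus), *Timp2* at chr11:118355362-118355661 (minus) and *Lamb1* at chr12:31265043-31265342 (plus). Capitals mark a match to one of 5 motifs searched on both strands. The motifs were the GC box GGGCGG, the AP-1 site TGANTCA, the TATA box TATAAA, the E-box CACGTG read by the MITF and MYC class of factors, and the M-box core TCATGTG.
Sparc: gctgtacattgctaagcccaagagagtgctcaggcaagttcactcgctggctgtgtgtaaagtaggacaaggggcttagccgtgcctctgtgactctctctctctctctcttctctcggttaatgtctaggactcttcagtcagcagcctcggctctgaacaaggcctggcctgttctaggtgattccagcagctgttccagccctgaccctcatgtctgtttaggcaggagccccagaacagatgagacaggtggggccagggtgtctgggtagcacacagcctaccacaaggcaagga
Col5a1: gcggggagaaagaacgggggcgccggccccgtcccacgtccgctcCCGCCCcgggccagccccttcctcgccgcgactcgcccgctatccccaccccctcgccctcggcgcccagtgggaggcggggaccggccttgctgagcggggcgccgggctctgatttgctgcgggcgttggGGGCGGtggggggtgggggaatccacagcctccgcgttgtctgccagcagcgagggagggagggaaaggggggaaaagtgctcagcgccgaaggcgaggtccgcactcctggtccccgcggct
Timp2: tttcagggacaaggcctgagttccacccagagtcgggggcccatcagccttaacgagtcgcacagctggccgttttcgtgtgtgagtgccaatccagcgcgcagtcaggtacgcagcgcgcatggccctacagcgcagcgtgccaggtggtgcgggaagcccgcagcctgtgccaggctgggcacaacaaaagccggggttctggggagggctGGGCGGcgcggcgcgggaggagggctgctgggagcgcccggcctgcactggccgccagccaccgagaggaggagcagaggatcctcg
Lamb1: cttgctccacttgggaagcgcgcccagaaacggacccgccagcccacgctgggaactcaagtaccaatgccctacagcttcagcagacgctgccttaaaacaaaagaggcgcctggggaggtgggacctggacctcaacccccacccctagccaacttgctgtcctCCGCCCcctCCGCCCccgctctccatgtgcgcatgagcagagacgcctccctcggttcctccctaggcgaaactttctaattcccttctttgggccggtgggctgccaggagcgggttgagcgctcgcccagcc

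The matches in these windows were all GC boxes, with 2 in *Col5a1*, 1 in *Timp2*, 2 in *Lamb1* and 0 in *Sparc*. The G and C content was 55.3% in *Sparc*, 75% in *Col5a1*, 68.7% in *Timp2* and 63.7% in *Lamb1*. Windows on chr18, where *Lama3* lies, were left out before counting. Of the 70 members, 50 had an entry among the windows kept, with 55 windows. A GC box was present in 32 of these 55 windows, against 35.7% of all 32851 windows, and the E-box in 0 of 55, against 7.15%. The AP-1 site was present in 2 windows (*Itga3* and *Itga9*), against 7.81%, and the M-box core in 2 (*Col24a1* and *Itga3*), against 3.77%. *Col10a1*, *Col11a2*, *Col13a1* and *Col17a1* had a TATA box, against 13.6% of all windows. A match is a run of letters and not a measured site.

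Genes that work with the members were read from 5 related lists. In the edgeR fit of HPC against LPC with all 6 libraries 0 genes of any list passed, with or without the block. At an unadjusted p under 0.05 there were 0 without the block, and with it 1 matrix receptor and 1 glycoprotein or proteoglycan gene. With the block and without set 2, where 1.3% of all genes were called, 12.1% had an unadjusted p under 0.05 and the median log2 change was 0, 0 of 23 intracellular adhesion partners of integrins passed. Their median was -0.12, and 4 had an unadjusted p under 0.05. Of 15 collagen folding and crosslinking enzymes 0 passed (median 0.11, 2 genes unadjusted), and of 19 other proteases and inhibitors also 0 (median 0.24, 1 gene unadjusted). Among 14 other matrix receptors 1 was higher and 1 lower in HPC. *Cd81*, which encodes a tetraspanin that associates with integrins, had 1506 and 2350 counts in HPC and 1025 and 1515 in LPC of sets 1 and 3, a log2 fold change of 0.65 ± 0.14 (edgeR adjusted p 0.01526), and 39 and 535 counts in HPC and LPC of set 2. *Rpsa*, which encodes a ribosomal protein also described as a laminin receptor, had 3334 and 5235 counts in HPC of sets 1 and 3. In LPC of these sets it had 4394 and 9081, a log2 fold change of -0.54 ± 0.12 (edgeR adjusted p 0.02277). In set 2 *Rpsa* stood at 1600 CPM in HPC and 2110 CPM in LPC, the same direction. With all 6 libraries and the block it did not pass (edgeR adjusted p 0.9267).

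Among 24 other matrix glycoproteins and proteoglycans 1 passed in the same comparison. It was *Sparcl1*, which encodes a relative of the *Sparc* product, with 829 and 897 counts in HPC and 435 and 472 in LPC of sets 1 and 3 (log2 fold change 0.98 ± 0.16, edgeR adjusted p 0.001761). *Sparcl1* had 2 counts in HPC and 191 in LPC of set 2, the opposite direction.

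The counts of some members are uncertain because reads could belong to another gene. Of 35 members checked in GENCODE vM21, 9 have exons that overlap a gene on the opposite strand, among them *Itga4* (*Cerkl*), *Itgav* (*Gm13684*), *Timp3* (*Syn3*), *Nid1* (*Gm48682*) and *Fn1* (*Apol7d*), and 3 overlap a gene on the same strand. Stretches of at least 100 bases with at least 95% identity join 12 of the 35 to another gene, with *Itga6* joined to 7. *Itgb3*, *Itgb1*, *Sparc*, *Timp2*, *Lama4* and *Lamb1* have no such overlap or stretch at these limits. In all these bulk libraries fewer cells that express a gene and less RNA per cell cannot be told apart.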

How the data were processed

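RNA from sorted HPC and LPC of B16-F10 was measured in 6 libraries. The authors deposited unnormalized counts for each gene row, made with HTSeq per the file's name and tally rows. STAR and GRCm38 are named in the submitters' processing notes. The annotation, counting mode and use of strand are not given in the sources used here. The rows for reads in no gene (12.4% to 29.5% of tallied reads) and in several genes were left out. Counts were tested with edgeR 4.0.16 (robust quasi-likelihood fit, TMM, filterByExpr at a minimum count of 10) in R 4.3.3 with Benjamini-Hochberg adjustment over all genes tested; SEs came from the test statistic. For differences within a set, log2 CPM had 2 as prior count. Set 1 was compared with set 3 in a fit with group as covariate. DESeq2 1.42.0, limma 3.58.1, RLE scaling, no filter, the set block and left-out libraries were alternatives. Shared sequence was found with blastn 2.17.0, and figures were drawn with matplotlib 3.10.9.

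The members and lists were chosen with earlier results of these data known. Named members averaged at least 20 CPM, passed in an HPC against LPC fit, kept 1 sign in all sets at 5 CPM or more (up to 6 per direction) or led their family; for the sets, members called with 6 libraries, of which there were 0. *Itga2b*, *Fn1*, *Col5a1*, *Col11a2* and low members were named after their values were seen. The suffix was taken to pair libraries because deviations from group means correlated within each set (r = 0.466, 0.316 and 0.422, above the minimum of 0.1). No pair of libraries was a duplicate (lowest chi-square divided by its degrees of freedom, 14.5). Fits were tested on simulated counts.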

Additional observations from a re-analysis of the deposited data

How the results depend on the processing

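For HPC against LPC, 0 genes and 0 members passed with edgeR, RLE scaling, no filter, the replicate block, 3 abundant rows left out, set 2 left out without the block, or any 1 library left out (0 to 0 genes and 0 to 0 members). Other settings gave 5 genes (DESeq2), 34 (limma-voom with sample weights and the block), 155 (edgeR with the block, without set 2), 136 (DESeq2, same libraries and block) and 344 (limma-voom, same), of which 1 member in the edgeR and 1 in the limma-voom fit, *Itgb3* in both; DESeq2 gave *Itgb3* no adjusted p (unadjusted p 0.00317). The cause was not tested. The last 2 fits and set 2 left out without the block were chosen after the data were seen. *Itgb3* changed by 0.69 with the replicate block and ranged from -0.08 (without HPC of set 1, reversed) to 1.12 over left-out libraries, and its share difference from 2.55 to 8.76 percentage points, against 5.85. The block alone changed no call of a member over all 6 libraries. For set 1 against set 3, genes called were 0 with 6 libraries, 14 with no filter, 84 with no group term, 3035 without set 2 and 3367 with limma-voom without set 2 (chosen later), and 0 to 3098 over left-out libraries; members called were 0, then 11 without set 2 and 14 with limma-voom, and 0 to 11. With unscaled totals 1 member rather than 2 was higher in all sets and 6 rather than 4 were lower. The 40 members with too few counts were not tested; low expression and limited depth cannot be told apart for them.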
